A study of Mus musculus with 4 samples.

Results

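The guanylate-binding proteins described here are 9 mouse paralogues, Gbp2, Gbp3, Gbp4, Gbp5, Gbp6, Gbp7, Gbp8, Gbp9 and Gbp10, taken by symbol from the 31053 genes of 4 single-cell count matrices. All 9 had counts in every library, and none was removed by a filter on low values. The data came from tumours grown in mice from B16F10, a transplantable mouse melanoma line that the study used because it resists checkpoint blockade. The tumours were digested, depleted of red cells, debris and dead cells, and profiled by 10x Genomics 5′ single-cell RNA sequencing, in which each captured transcript molecule is counted once by its molecular identifier (UMI). There were 4 libraries, 1 per group: tumours from control mice (control), from mice given an antibody against PD-1, an inhibitory receptor of T cells (aPD-1), from mice given doxorubicin, an anthracycline, with fasudil, a ROCK inhibitor (D+F), and from mice given doxorubicin, fasudil and the anti-PD-1 antibody (D+F+P). The labels do not give the number of mice behind a library, nor their strain or age. With 1 library per group there is no replicate check: differences below are between libraries, no test was possible, and intervals cover counting error only.

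Guanylate-binding proteins are large GTPases of the dynamin superfamily that cells make chiefly in response to interferon-γ, with IRF1 as one of the transcription factors involved, and more weakly in response to type I interferons. They bind GTP, self-assemble and coat the vacuoles of intracellular parasites and the surface of cytosolic bacteria, a step that in mice depends on the immunity-related GTPases and on autophagy conjugation proteins, and they feed the caspase-11 and AIM2 inflammasomes. Tumour cells and leukocytes can both express them, so that in a bulk tumour their RNA does not tell one source from the other.

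The 9 genes lie in 2 clusters (GRCm38, GENCODE M21). Gbp5, Gbp7, Gbp3 and Gbp2 stand on the plus strand of chromosome 3 within chr3:142493978-142638008, and Gbp8, Gbp9, Gbp4, Gbp10 and Gbp6 on the minus strand of chromosome 5 within chr5:105014150-105293698. RefSeq promoter sequence (GRCm38.p6) was at hand for the 4 chromosome 3 genes, and each held at least 1 interferon-stimulated response element (ISRE, a pair of GAAA blocks with 2 bases of any kind between them, searched on both strands) in the 250 bases before its start. Of 32851 RefSeq promoters, 2.98% held an ISRE in that window, 7.02% held a gamma-activated site (GAS, TTCNNNGAA) and 0.332% held both, as Gbp5 and Gbp7 did. The stretches that carry these elements are shown because the results below compare genes of one interferon-driven family that moved by unequal amounts. They run 5′ to 3′ on the plus strand, with the ISRE and GAS matches in capitals. The ISRE matches lie on the minus strand and so read here as a pair of TTTC blocks.
Gbp2: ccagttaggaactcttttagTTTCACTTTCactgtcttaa
Gbp3: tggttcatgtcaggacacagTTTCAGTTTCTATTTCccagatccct
Gbp5: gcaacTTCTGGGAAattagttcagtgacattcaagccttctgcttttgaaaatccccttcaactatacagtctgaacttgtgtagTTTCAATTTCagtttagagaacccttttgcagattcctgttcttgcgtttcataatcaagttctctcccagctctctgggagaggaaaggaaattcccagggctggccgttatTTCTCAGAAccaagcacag
Gbp7: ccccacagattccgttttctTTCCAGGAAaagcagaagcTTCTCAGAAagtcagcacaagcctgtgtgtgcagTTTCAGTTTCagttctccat
The Gbp2 stretch is chr3:142620584-142620623, with its ISRE at positions -59 to -50 from the RefSeq start. The Gbp3 stretch is chr3:142559979-142560024 and holds a pair of overlapping ISRE matches, at -45 to -36 and -39 to -30; a second RefSeq start of Gbp3 had no match in its window. The Gbp5 stretch is chr3:142496684-142496900, with an ISRE at -165 to -156 and GAS matches at -245 to -237 and -52 to -44. The Gbp7 stretch is chr3:142530210-142530302, with an ISRE at -53 to -44 and GAS matches at -106 to -98 and -87 to -79. A match describes letters in the window and is not evidence of binding.

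The matrices held 2529, 2525, 2809 and 2739 cell barcodes for control, for aPD-1, for D+F and for D+F+P, of which 2275, 2214, 2483 and 2443 were kept, with between 22691663 and 34444856 UMIs per library. The D+F+P library stood apart: its median was 1866 UMIs per kept cell, against 9563.5 to 16143 in the other libraries, and 1798 of its cells were leukocytes with a median of 954.5 UMIs. Libraries shared between 1 and 14 barcodes per pair. The melanoma-like class held 1914, 1108, 1734 and 536 cells, with a median of 17672.5, 18725.5, 16218 and 28523 UMIs, and each of its 8 marker genes was detected in at least 82.0% of its cells in every library. Among leukocytes, the monocyte/macrophage-like class held 60, 198, 82 and 66 cells and the CD8 T-like class 6, 321, 168 and 325. The monocyte/macrophage-like class was less sharply marked: detection of its 7 macrophage markers ran from 7.58% of cells (Mrc1, D+F+P) to 61.0% (Apoe, D+F). Levels are given as CPM, the UMIs of a gene per 1000000 UMIs of the class, with exact Poisson intervals at 95%. The molecules are tagged near one end, so levels compare classes and libraries for one gene and not one gene with another. A member was called higher or lower where 2 libraries or classes differed by at least 1.5-fold over at least 20 UMIs.

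In melanoma-like cells the whole family stood higher in the 3 treated libraries than in the control library. The summed level of the 9 genes was 230.4 CPM in the control library, 502.1 CPM in aPD-1, 474.1 CPM in D+F and 739.2 CPM in D+F+P. Against control, the sum was higher by a log2 ratio of 1.12 (95% interval 1.08 to 1.17) in aPD-1, 1.04 in D+F and 1.68 (1.64 to 1.72) in D+F+P. All 9 members were called higher in aPD-1, against 6.67% of 12257 genes tested. In D+F, 8 of 9 were called higher, against 7.43% of genes, with Gbp3 just under the fold. In D+F+P all 9 were called higher, against 9.87% of genes. No member was called lower in any of these, where 6.09%, 5.08% and 10.7% of genes were. The members' median log2 ratios of 1.32, 1.04 and 1.94 stood beside medians of -0.05, -0.06 and -0.09 over all genes. With the melanoma-like clusters held at the shares they have in the control library, an alternative chosen after seeing the data, the ratios of the sum were 0.74, 0.72 and 0.71 and the counts of members called higher fell to 6, 7 and 5 of 9. Gbp3 and Gbp5 were then under the fold in all 3 libraries, Gbp9 in aPD-1 and D+F+P, and Gbp7 in D+F+P. No share over all genes was computed under this weighting. The weighting also fixes the share of a cluster led in part by genes of the same pathway. It can therefore take out part of the difference measured. The weighted D+F+P values also lean on clusters that hold few D+F+P cells, as given below. The 3 comparisons share the control library, so they are not independent of one another.

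The 4 chromosome 3 genes differed among themselves. Gbp2, which with Gbp5 carries the C-terminal signal for lipid anchoring and takes part in coating and lysing parasite vacuoles, stood at 83.6 CPM (80.5 to 86.8) in control, 211 CPM (204 to 217) in aPD-1, 191 CPM (186 to 197) in D+F and 336 CPM (327 to 346) in D+F+P. No interval overlapped another, but the intervals leave out the spread between cells. That spread was wider than counting error, with Fano factors (variance over mean) of 2.27 to 2.85 in thinned cells. Its log2 ratio to control was 1.33 (1.26 to 1.40), 1.19 (1.13 to 1.26) and 2.01 (1.94 to 2.08) in that order. Gbp7, known to act on the phagocyte NADPH oxidase, stood at 52.0, 91.8, 88.1 and 107 CPM, and Gbp3, which is also recruited to parasite vacuoles, at 44.8, 70.7, 65.7 and 90.7 CPM. The log2 ratios of Gbp7 and Gbp3 in D+F+P were 1.05 (0.95 to 1.14) and 1.02, about 1 log2 unit below that of Gbp2. Gbp5, which promotes inflammasome assembly, was read from few molecules in these cells, 114, 118, 171 and 111 UMIs, or 3.48, 5.66, 6.01 and 7.53 CPM. Its log2 ratios were 0.70 (0.32 to 1.09), 0.79 (0.44 to 1.15) and 1.12 (0.73 to 1.51), with intervals wide enough to overlap one another.

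The chromosome 5 genes included the largest ratios of the family. Gbp8 gave 33 UMIs in the control melanoma-like cells, or 1.01 CPM (0.693 to 1.41), and 147, 167 and 190 UMIs in the treated libraries, or 7.05 CPM (5.95 to 8.28), 5.87 CPM (5.02 to 6.83) and 12.9 CPM (11.1 to 14.9). The control value lay below all 3 treated values, whose log2 ratios were 2.81 (2.26 to 3.40), 2.54 and 3.68 (3.14 to 4.26). Gbp10, one of the members reported to protect macrophages against bacteria, stood at 2.99, 12.3, 11.6 and 23.0 CPM, with log2 ratios of 2.04 (1.70 to 2.39), 1.96 (1.63 to 2.30) and 2.94 (2.62 to 3.28). Gbp4, reported to hold back IRF7 signalling, stood at 30.3, 75.6, 82.1 and 124.9 CPM, with log2 ratios of 1.32, 1.44 and 2.04. Gbp6 followed at 6.40, 18.0, 13.2 and 24.6 CPM, with log2 ratios of 1.49, 1.04 and 1.94. Gbp9 moved least in this cluster, from 5.79 CPM in control to 10.5, 10.2 and 12.1 CPM, with log2 ratios of 0.86, 0.82 and 1.06. The size of the difference did not follow the chromosomal cluster: Gbp9 on chromosome 5 lay with Gbp3, Gbp5 and Gbp7, and Gbp2 on chromosome 3 lay with Gbp4 and Gbp6.

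**Figure D1:**
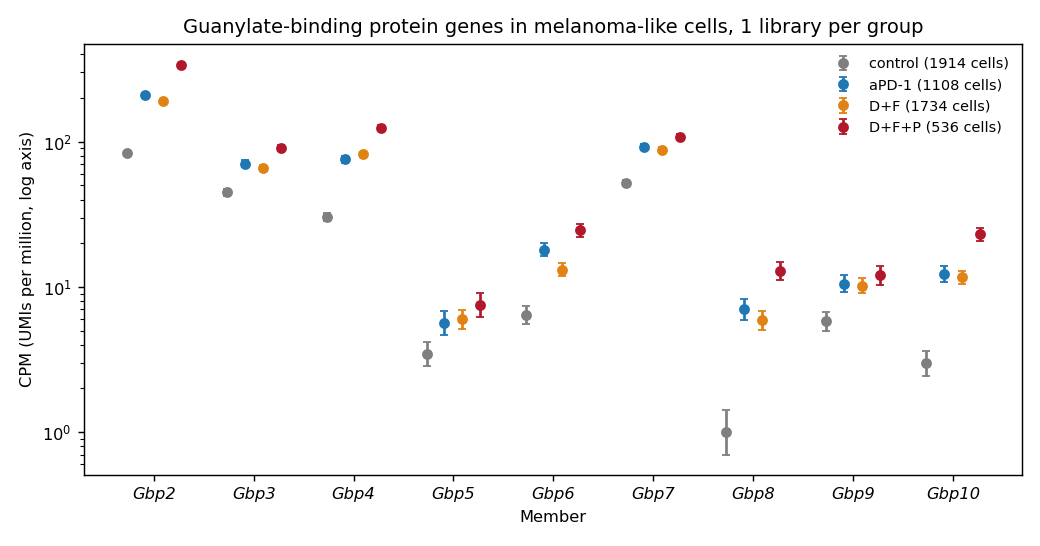
Level of each guanylate-binding protein gene in melanoma-like cells, in CPM on a log axis, in the 4 libraries (1 library per group), with exact Poisson 95% intervals as bars. The control library lies lowest for all 9 genes and the D+F+P library highest, with the widest gap for Gbp8 (1.01 and 12.9 CPM).

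The triple combination was also set against its component treatments. Against D+F, 5 of 9 members were called higher in D+F+P melanoma-like cells, against 5.37% of genes: Gbp2 by a log2 ratio of 0.81, Gbp4 by 0.61, Gbp6 by 0.90, Gbp8 by 1.13 (0.83 to 1.44) and Gbp10 by 0.98 (0.76 to 1.21). Against aPD-1, 4 of 9 were called higher, against 5.51% of genes: Gbp2 by 0.67, Gbp4 by 0.73, Gbp8 by 0.87 (0.55 to 1.19) and Gbp10 by 0.91 (0.67 to 1.15). None was called lower in either comparison, where 4.86% and 4.32% of genes were. With the melanoma-like clusters held at their control shares, 0 of 9 were called in either comparison: the ratios to D+F were 0.13 for Gbp2, -0.12 for Gbp4, 0.28 for Gbp6, 0.38 for Gbp8 and 0.39 for Gbp10, and those to aPD-1 lay between -0.33 and 0.22 over the 9. No share over all genes was computed under this weighting, which can take out part of the difference measured. The 4 members called in both were also the members, with Gbp6, that differed most from control, while Gbp9 differed by 0.24 (-0.03 to 0.52) from D+F and by 0.20 (-0.10 to 0.49) from aPD-1, both intervals holding 0. The make-up of the family's RNA moved with the level: Gbp2 gave 36.3% of the 9 genes' UMIs in control and 45.5% in D+F+P, Gbp7 22.6% and 14.5%, and Gbp3 19.4% and 12.3%.

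Monocyte/macrophage-like cells held the highest Gbp2 level of the classes ranked, which were 4, 9, 8 and 9 in the 4 libraries. The ranking left out the neutrophil-like class, which held 20 cells in control, and the unnamed cells outside the lymphocytes. Gbp2 stood there at 114 CPM (28 UMIs) in control, 360.1 CPM (270 UMIs) in aPD-1, 597 CPM (184 UMIs) in D+F and 991 CPM (266 UMIs) in D+F+P. Its log2 ratio to control was 1.66 (1.10 to 2.28), 2.39 (1.81 to 3.02) and 3.12 (2.55 to 3.74), and D+F+P lay above aPD-1 by 1.46 (1.21 to 1.71) and above D+F by 0.73. The control interval, 75.8 to 165 CPM, overlapped that of melanoma-like cells. The log2 ratio of melanoma-like to monocyte/macrophage-like cells was -0.45, -0.77, -1.64 and -1.56 in the 4 libraries. Of the members with at least 20 UMIs in the pair, 7 of 7 were called higher in aPD-1 than in control (19.4% of genes), 6 of 6 in D+F (17.2% of genes) and 5 of 5 in D+F+P (20.6% of genes), and the summed level was 309, 791, 1221 and 1441 CPM. The remaining members had fewer than 20 UMIs in the pair, among them Gbp10 with a single UMI in each treated library.

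Among the treated libraries the members did not share one order in these cells. Gbp9 stood at 36.6, 56.0, 55.2 and 78.2 CPM and so, like Gbp2, was highest in D+F+P. Gbp5 stood at 24.4 CPM (6 UMIs), 50.7 CPM (38 UMIs), 120 CPM (37 UMIs) and 41.0 CPM (11 UMIs), so that it was highest in D+F and lower in D+F+P than in D+F by a log2 ratio of -1.55 (-2.67 to -0.55). Against D+F, 1 of 7 members was called higher in D+F+P (14.4% of genes) and 2 of 7 lower (15.9% of genes), the latter being Gbp5 and Gbp7. Against aPD-1, 1 of 7 was called higher (12.6% of genes), namely Gbp2. Gbp8 gave no UMI in the control cells of the class and 52.0, 48.7 and 44.7 CPM in the treated libraries, at least 4.26-fold, 3.99-fold and 3.66-fold higher when the control is set at a floor of 3 UMIs. Gbp10 was nearly absent, at 0, 1, 1 and 1 UMIs. The class was not made up alike: 25 of its 60 control cells lay in a sub-cluster led by Saa3, Nos2 and Arg1, which held 11, 6 and 2 cells in the other libraries, and 10, 69, 31 and 15 cells lay in the sub-cluster led by complement C1q genes. Within that C1q-led sub-cluster Gbp2 stood at 104, 245, 417 and 373 CPM, and within the sub-cluster led by Chil3, a monocyte gene, at 228, 416, 865 and 1174 CPM. The treated values lay above control in both, but the control values rest on 9 and 10 UMIs. Their intervals overlapped those of aPD-1. In the C1q-led sub-cluster these were 47.38 to 196.7 and 194.7 to 303.1 CPM, and in the Chil3-led one 109.1 to 418.3 and 318.3 to 534.5 CPM. Over the sub-clusters that carry a name, an alternative chosen after seeing the data, the log2 ratio of Gbp2 in aPD-1 to control was 1.03 instead of 1.66.

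CD8 T-like cells could be compared among the 3 treated libraries only, since the control library held 6 of them. The summed level was 234 CPM in aPD-1, 192 CPM in D+F and 193 CPM in D+F+P. Gbp2 stood at 20.9, 24.2 and 28.5 CPM, the lowest of the classes ranked in each of these libraries, and melanoma-like cells exceeded it by log2 ratios of 3.33, 2.98 and 3.56. Gbp3 stood at 41.5, 42.1 and 42.2 CPM and Gbp4 at 37.8, 38.2 and 42.4 CPM, nearly level across libraries. None of the 8 members with enough UMIs was called between D+F+P and D+F, where 12.8% of genes were called higher and 7.83% lower. Between D+F+P and aPD-1 none of 9 was called higher (9.68% of genes) and 4 were called lower (6.82% of genes): Gbp5 by -0.94 (-2.12 to 0.21), Gbp7 by -0.77 (-1.11 to -0.43), Gbp8 by -1.10 (-1.67 to -0.54) and Gbp10 by -1.13 (-2.03 to -0.25). The interval of Gbp5 holds 0. The gain over anti-PD-1 alone in Gbp8 and Gbp10 in melanoma-like cells was thus not matched in the CD8 T-like cells of the same 2 libraries. Ifng, which encodes interferon-γ, stood in these T cells at 338, 262 and 250 CPM, with the D+F+P level the lowest of the 3, and at most at 0.747 CPM in melanoma-like cells.

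NK-like cells carried Gbp5 above the CD8 T level. Gbp5 stood in them at 43.1, 38.0, 25.2 and 23.5 CPM, from 7, 8, 4 and 14 UMIs, and exceeded CD8 T-like cells by log2 ratios of 2.53 (1.10 to 3.84) in aPD-1 and 2.78 (1.58 to 3.99) in D+F+P. In D+F the ratio was 2.43 (0.16 to 4.51), from 10 UMIs in the pair and so without a call. A sub-cluster with few ribosomal protein UMIs held 4 of 47, 42 of 89, 23 of 71 and 268 of 362 NK-like cells in the 4 libraries. The median depth of the class was 2435, 977, 1411 and 728.5 UMIs. The 4 values therefore rest on unlike mixes of cells, most so in D+F+P. In fibroblast-like cells, which could be compared between 44 aPD-1 and 25 D+F+P cells, Gbp2 stood at 168 and 433 CPM, Gbp4 at 22.7 and 172 CPM and Gbp7 at 21.4 and 71.3 CPM. There, 4 of 4 members with enough UMIs were called higher in D+F+P (22.0% of genes), with Gbp4 at a log2 ratio of 2.92 (2.14 to 3.78). Conventional dendritic-like cells gave Gbp2 at 117, 182 and 293 CPM in the 3 treated libraries and no UMI of Gbp6 or Gbp10, which allows levels of up to 13.1, 28.0 and 20.4 CPM. Regulatory T-like cells had summed levels of 407, 340 and 432 CPM in those libraries. An unnamed lymphocyte cluster led by Ly6c2, Id3, Ifit3 and Cxcr3 had summed levels of 470, 567, 964 and 587 CPM in the 4 libraries, and 4 of 7 members were called lower there in D+F+P than in D+F (18.4% of genes). Other unnamed lymphocytes, with few ribosomal protein UMIs (low-ribosomal lymphocytes), held 134, 89 and 769 cells in the treated libraries. Their summed levels were 552, 531 and 766 CPM, from 69, 41 and 553 UMIs. These lay close to the 502, 474 and 739 CPM of melanoma-like cells.

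**Figure D2:**
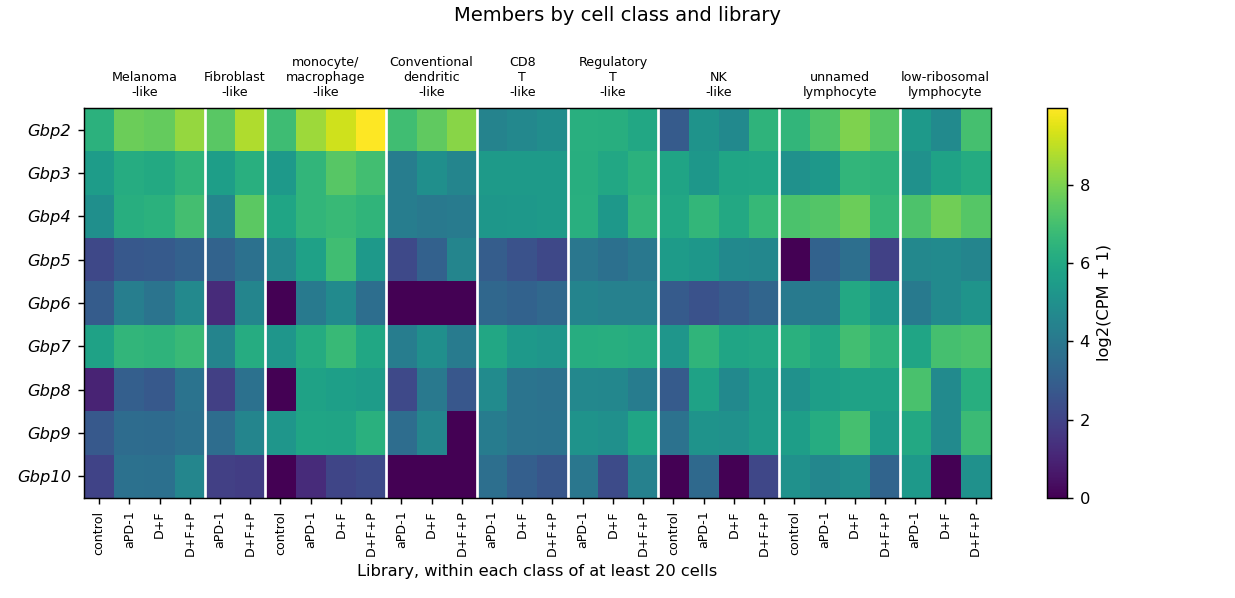
Level of each gene by cell class (blocks) and library (columns within a block), as log2(CPM + 1), for the classes ranked, where they held at least 20 cells. Neutrophil-like cells and unnamed cells outside the lymphocytes are not shown. Among the classes shown, Gbp2 is highest in monocyte/macrophage-like cells in all 4 libraries (114, 360.1, 597 and 991 CPM), and Gbp10 there rests on 0, 1, 1 and 1 UMIs.

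No member was restricted to tumour cells or to leukocytes in the sense of being undetected on the other side in any library, but the balance differed by gene and by library. Against all leukocytes of the same library, 1 member was called higher in melanoma-like cells and 4 lower in control (35.7% and 22.9% of genes), 2 and 3 in aPD-1 (40.2% and 26.0% of genes), 2 and 3 in D+F (38.8% and 24.8% of genes), and 6 and 2 in D+F+P (35.7% and 32.1% of genes). Shares of this size in the background mean that a call between classes is common for any gene. The leukocyte pool was not mixed alike: monocyte/macrophage-like cells were 60 of 217, 198 of 953, 82 of 610 and 66 of 1798 of its cells. Ratios to the pool therefore rest on unlike mixes of cells in the 4 libraries.

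Gbp8, Gbp9 and Gbp5 leaned to leukocytes. Gbp9 stood at 5.79, 10.5, 10.2 and 12.1 CPM in melanoma-like cells against 28.0, 28.8, 30.3 and 34.5 CPM in leukocytes, a log2 ratio of -2.27, -1.45, -1.57 and -1.51, and its leukocyte level varied less over libraries than its tumour level. Gbp8 stood at 14.0, 34.4, 22.2 and 27.7 CPM in leukocytes, with log2 ratios of -3.80 (-4.85 to -2.61), -2.29, -1.92 and -1.10 (-1.40 to -0.80), so that the gap was 13.9-fold in control and narrowed in the treated libraries. Gbp5 stood at 28.0, 17.1, 22.6 and 9.77 CPM in leukocytes, with log2 ratios of -3.01 (-3.70 to -2.24), -1.60, -1.91 and -0.37 (-0.83 to 0.09). Its D+F+P interval holds 0, and that ratio depended on how leukocytes were counted, between -1.25 and 0.25. Those of Gbp8 and Gbp9 stayed below 0 under every alternative that left at least 20 UMIs in the pair. Thinning to 1000 UMIs gave values for only 30 of the 36 pairs of member and library, so it does not cover all of them. Against CD8 T-like cells alone, the log2 ratio of Gbp8 in melanoma-like cells was -1.94 in aPD-1, -1.17 (-1.90 to -0.36) in D+F and 0.03 (-0.44 to 0.52) in D+F+P, so the lean was not seen against these cells in the last library.

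Against all leukocytes pooled, Gbp2 leaned to melanoma-like cells in the 3 treated libraries and Gbp10 in D+F and D+F+P. The lean did not hold against every class. Gbp2 was higher in monocyte/macrophage-like cells in each treated library. Against T and NK cells together, Gbp2 was higher in melanoma-like cells in control too. The log2 ratio there was 1.42 (0.58 to 2.43), from 11 UMIs on the lymphocyte side. In the treated libraries that ratio was 2.62, 1.88 and 2.41. Gbp10 stood at 28.9 CPM (5 UMIs) in the unnamed lymphocyte cluster of D+F, against 11.6 CPM in melanoma-like cells. In D+F+P it stood at 31.9 CPM (23 UMIs) in low-ribosomal lymphocytes, against 23.0 CPM. Against the pool, Gbp2 was near even in control, at 83.6 CPM against 74.1 CPM, with a log2 ratio of 0.17 (-0.22 to 0.60). It was higher in melanoma-like cells than in the pool in the treated libraries by 1.14 (0.99 to 1.28), 0.59 (0.43 to 0.76) and 1.65 (1.54 to 1.77). In D+F this lean turned to -0.15 when each cell was thinned to 1000 UMIs. Gbp10 had log2 ratios of -0.49 (-2.08 to 1.81), 0.28, 0.85 (0.13 to 1.67) and 1.37 (0.97 to 1.79), and the D+F value turned to -0.07 as a mean over cells. Against monocyte/macrophage-like cells alone, Gbp10 was higher in melanoma-like cells by 3.20 (0.71 to 8.51) in aPD-1, 1.84 (-0.65 to 7.15) in D+F and 2.63 (0.14 to 7.94) in D+F+P, each resting on a single UMI on the macrophage side. Gbp4 changed side, from -1.05 (-1.48 to -0.59) in control to 0.35, 0.34 and 0.83, while its tumour level was 30.3 CPM in control and at least 75.6 CPM elsewhere; as a mean over cells the D+F+P ratio was -0.01. Gbp2b, a relative outside the 9, marked the myeloid side most sharply: it gave 0, 31, 15 and 7 UMIs in monocyte/macrophage-like cells and 0, 1, 2 and 0 UMIs in all melanoma-like cells.

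**Figure D3:**
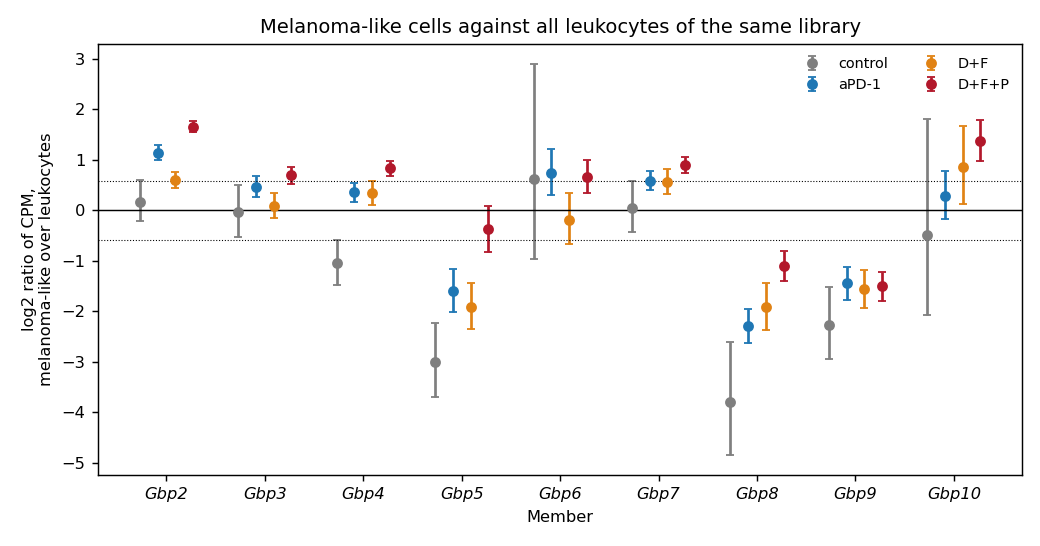
Log2 ratio of the level in melanoma-like cells to that in all leukocytes of the same library, by gene, with 95% intervals for counting error as bars and 1 point per library; values above 0 are higher in melanoma-like cells. Gbp8 and Gbp9 lie below 0 in all 4 libraries, and Gbp4 passes from -1.05 in control to 0.83 in D+F+P.

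RNA free in the suspension moved with some of these values. A list of 19 leukocyte genes reached 1.09% to 1.69% of its leukocyte level in melanoma-like cells, a level that could hold 15.2% of the Gbp8 UMIs and 8.80% of the Gbp5 UMIs in control melanoma-like cells and at most 5.4% for any other member and library. In the other direction, melanoma genes reached 17.7%, 8.38%, 4.91% and 2.22% of their tumour level in monocyte/macrophage-like cells and 0.722% to 2.17% in CD8 T-like cells of the treated libraries. At that level, tumour RNA could hold 8.53% to 17.2% of the Gbp2 UMIs in CD8 T-like cells, 22.1% to 68.2% of those in NK-like cells and 13.7% to 77.2% of the few Gbp10 UMIs in treated monocyte/macrophage-like cells. The doublet caller marked too few cells to rely on, and the part of doublets and free RNA in these values was not tested.

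Within the melanoma-like class, family RNA was uneven. The class fell into 8 clusters, made without the 9 genes. Cluster 5, led by Kcnj13, Apol6, Batf2, Iigp1 and Cxcl10, held 87, 206, 235 and 209 cells and had a summed level of 853 CPM already in the control library, with 953, 1075 and 1092 CPM in the treated libraries. The other 7 clusters lay between 86.1 and 378 CPM in control. The treated libraries lay above control in 8 of 8 clusters each, from 115 CPM in control to 158 CPM or more in cluster 1, led by Car9, and from 303 to 861 CPM in cluster 6 between control and D+F+P. Inside cluster 5 the log2 ratios to control were small, at 0.16 (0.07 to 0.25), 0.33 and 0.36, and over the other clusters together they were 0.97, 0.91 and 1.29. With all clusters held at their control shares, the sum in D+F+P was level with the other treatments, at log2 ratios of 0.00 to D+F and -0.03 to aPD-1. Cluster 5 held 4.545%, 18.59%, 13.55% and 38.99% of the melanoma-like cells in the 4 libraries. Iigp1, among its leading genes, is an immunity-related GTPase of the same pathway. Although made without the 9 genes, the clusters are thus not independent of them. Fixing the share of cluster 5 can take out part of the difference measured. The weighted D+F+P values also lean on few cells. Clusters 1, 2 and 7 held 18.1%, 26.2% and 16.7% of the control melanoma-like cells, but 37, 32 and 16 cells in D+F+P. Members differed inside cluster 5. Gbp8 stood there at 7.27, 18.0, 21.5 and 21.1 CPM, with log2 ratios to control of 1.31 (0.38 to 2.37), 1.57 and 1.54. Gbp10 had log2 ratios of 0.44 (-0.15 to 1.06), 1.04 (0.48 to 1.64) and 0.78 (0.23 to 1.37), Gbp7 0.54, 0.59 and 0.47, and Gbp6 0.81 (0.25 to 1.43) in D+F+P, while Gbp4 had -0.13, 0.27 and 0.15.

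**Figure D4:**
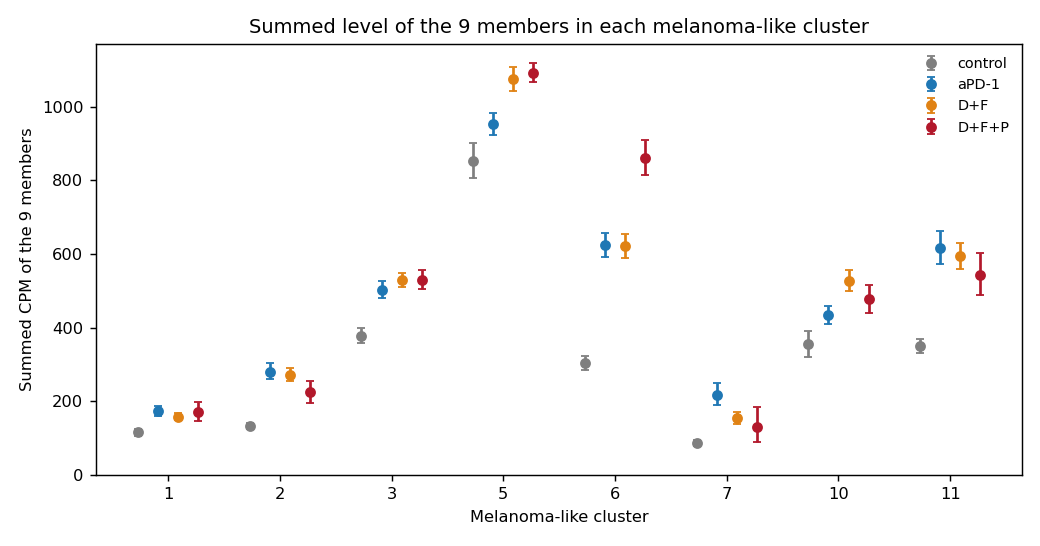
Summed level of the 9 genes, in CPM, in each of the 8 melanoma-like clusters and 4 libraries, with 95% Poisson intervals. Cluster 5 is highest in every library (853 to 1092 CPM), and control is lowest in all 8 clusters. The D+F+P points of clusters 7 and 11 rest on 16 and 18 cells.

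The spread over single cells was read after thinning each melanoma-like cell to 5000 UMIs, which kept 1823, 1054, 1629 and 511 cells. At least 1 UMI of any of the 9 genes was found in 46.5%, 73.5%, 68.5% and 84.9% of these cells. Gbp2 was found in 22.3%, 49.0%, 45.1% and 65.4% (41.2%, 73.2%, 66.4% and 86.4% unthinned), and Gbp4 in 10.2%, 26.7%, 24.2% and 43.8%. No class present here is known to lack Gbp2, so no background share is given beside these beyond the estimate from free RNA. The 5% of cells richest in Gbp2 held 48.4% of its UMIs in control and 24.6% to 30.9% in the treated libraries. That share falls by sampling as the mean level climbs. The Fano factor of Gbp2 (variance over mean) was 2.58 in control and 2.27, 2.67 and 2.85 in the treated libraries. It also depends on the mean, which was 0.405 UMIs per thinned cell in control and 1.06, 0.977 and 1.80 in the treated libraries. Neither measure therefore tells which library had the greatest relative spread. Members went together cell by cell. In control, the other 8 genes summed to 93.6 CPM in the 1416 cells with no Gbp2 UMI, 202 CPM in the 249 cells with 1 and 537 CPM in the 158 cells with 2 or more. In D+F+P the same steps were 216, 340 and 667 CPM. Cells without a Gbp2 UMI in D+F+P therefore carried more of the other members than such cells in control.

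**Figure D5:**
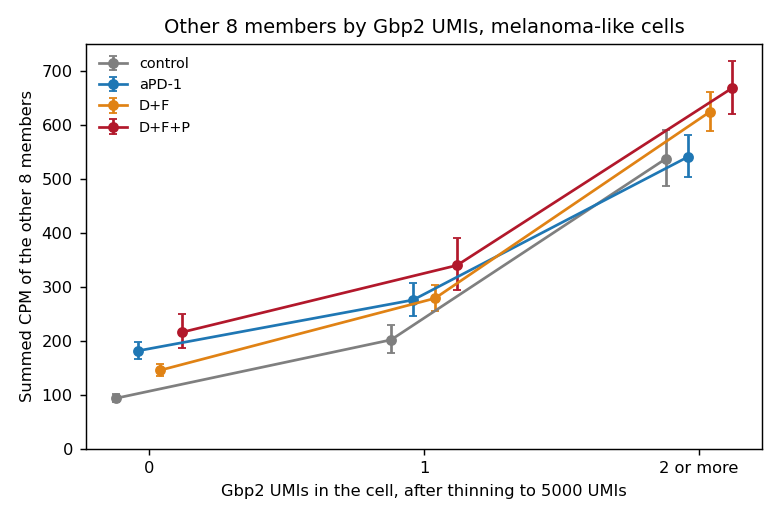
Summed level of the other 8 genes, in CPM, in melanoma-like cells thinned to 5000 UMIs and split by their own Gbp2 UMIs (0, 1, or 2 and more), by library, with 95% Poisson intervals. The level climbs with Gbp2 UMIs in every library, from 93.6 to 537 CPM in control and from 216 to 667 CPM in D+F+P.

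Across the 31 class and library pairs with at least 20 cells, the genes most like each member were ranked by Pearson's r of log2(CPM + 10) among 9665 genes, as a description, since pairs of one library share its depth and free RNA. Gbp2 was most like Zbp1 (r = 0.865), a nucleic acid sensor, followed by Irgm1 (0.837), an immunity-related GTPase, and Isg15 (0.827), a ubiquitin-like interferon product. Gbp5 was most like Arap1 (0.827) and then Ccr2 (0.724), a chemokine receptor of monocytes. Gbp6 was most like Igtp (0.714), another immunity-related GTPase. The first genes of the other members were Gm12185 for Gbp3 (0.702), Mepce for Gbp4 (0.853), Zfp131 for Gbp7 (0.832), Zfp592 for Gbp8 (0.826), Zc3h12a for Gbp9 (0.779) and Zfp945 for Gbp10 (0.796). Among the members, Gbp4 and Gbp7 went together most (0.87), then Gbp6 and Gbp7 (0.82) and Gbp4 and Gbp6 (0.79), although Gbp7 lies on the other chromosome. Gbp2 stood apart from the rest, at r between -0.03 and 0.44, and Gbp5 and Gbp10 gave -0.20.

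Other genes of the pathway were counted from a list of inducers, signalling proteins, transcription factors, negative regulators, immunity-related GTPases and recruitment partners. In melanoma-like cells, of 43 with at least 20 UMIs, 20, 15 and 22 were called higher than in control (in aPD-1, in D+F and in D+F+P) and 1, 2 and 1 lower, with median log2 ratios of 0.50, 0.32 and 0.73. Over all genes 6.67%, 7.43% and 9.87% were called higher and 6.09%, 5.08% and 10.7% lower. The immunity-related GTPases, which guide guanylate-binding proteins to vacuoles, were called higher in 8, 6 and 8 of 8 cases. Of 7 transcription factors 5, 3 and 5 were called higher. Irf1, which acts on guanylate-binding protein promoters, stood at 87.7, 166, 185 and 212 CPM. None of the 4 inducers and receptors was called higher, and Ifngr1, a chain of the interferon-γ receptor, had log2 ratios of -0.21, -0.49 and -0.46. Of 14 recruitment and inflammasome partners 4, 4 and 5 were called higher: Gsdmd, the pore-forming protein cleaved by inflammasome caspases, had log2 ratios of 0.71, 0.82 and 1.48, and Atg5, of the conjugation system that targets guanylate-binding proteins, had -0.39, -0.22 and -0.40. Isg15, induced chiefly by type I interferons, differed little from control, at 0.16, 0.19 and 0.03.

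Some members share sequence, which limits their separation. In GENCODE, Gbp4 shares 61 exonic bases with Gbp8 and 60 with Gbp9 at chr5:105139480-105139540, where 1 of 4 transcripts of each of Gbp8 and Gbp9 begins, and reads there cannot be assigned to one gene. In the first 400 bases of transcripts, 57.0% of the 50-base stretches of Gbp6, 45.4% of Gbp8, 44.6% of Gbp9, 40.7% of Gbp10 and 19.6% of Gbp4 also occur in another gene of the family, against none for Gbp2, Gbp3, Gbp5 and Gbp7. Values of the chromosome 5 members are therefore less certain than those of chromosome 3, and how the counting treated shared reads was not tested.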

How the data were processed

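Single-cell 5′ RNA of 4 mouse tumour libraries was analysed from the counts of UMIs per gene and cell that the authors deposited. Per the submitters' processing notes these came from Cell Ranger 3.1.0 and GRCm38 (mm10). The counts were not normalized, and no filter of the authors on cells is given in the sources used here beyond the barcodes in the matrices. A barcode was kept if it had 300 genes and 500 UMIs or more and no more than 20% of its UMIs from mitochondrial genes. Scrublet marked 46 of 9461 cells (0.486%), which were left out; under 0.5% the caller cannot be relied on, and most doublets will still be among the cells. Cells were clustered on 2000 variable genes without the 9 members (30 principal components, 15 neighbours, Leiden resolution 1, Scanpy 1.11.5, Python 3.11.15, NumPy 2.4.6, SciPy 1.17.1, pandas 2.3.3), and leukocytes were clustered again. A cluster was named where at least 3 markers of a list were each detected in at least 10% of its cells and that list led by mean z-score. It stayed unnamed where its top 10 genes held more markers of another list, or where none of the list's markers was among them and either its median UMIs were under 1/3 of its library's or the mean z-score was under 0.5. Unnamed myeloid sub-clusters still joined the monocyte/macrophage-like class where the first clustering gave them a macrophage or monocyte list. In control such sub-clusters held 5, 6 and 25 of the 60 cells of that class. Names are rebuilt and may differ from the study's. Counts were summed per class and library and divided by the class total. Ratios have exact conditional binomial intervals at 95%, which cover counting error only, and calls need 1.5-fold, 20 UMIs in the pair and 20 cells on each side. A count of 0 was set at a floor of 3 UMIs for bounds. The code was tested on simulated data. All members are reported, the pathway genes as a list, and the genes most like each member by the highest r. The members and lists were chosen with earlier results of these data known. Alternatives changed the cell filter, depth (thinning), naming, resolution, scaling, weighting of cells, and the low-ribosomal cells. Chosen after seeing the data were thinning to 5000 UMIs, weighting clusters as in control, and monocyte/macrophage sub-clusters that carry a name. Promoters are from RefSeq (GRCm38.p6) and matched 4 of 9 members; gene models are from GENCODE M21 and matched all 9 by identifier.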

Additional observations from a re-analysis of the deposited data

Results flagged for a closer look

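Each member's difference between 2 libraries in another class was set beside its difference in melanoma-like cells, and in 5 of 131 cases the signs were opposite with both counting intervals clear of 0. The same count was not made over all genes, so no background share stands beside it. With 1 library per group the difference between the classes was not tested. Between D+F+P and aPD-1, CD8 T-like cells were lower and melanoma-like cells higher: Gbp7 had log2 ratios of -0.77 and 0.23, Gbp8 -1.10 and 0.87, and Gbp10 -1.13 and 0.91. Between D+F+P and D+F, the unnamed lymphocyte cluster was lower and melanoma-like cells higher: Gbp2 had log2 ratios of -0.68 and 0.81, and Gbp4 -1.03 and 0.61. The CD8 T-like cells held 321 cells in aPD-1 and 325 in D+F+P, and the unnamed cluster 90 cells in D+F and 146 in D+F+P. With the melanoma-like clusters held at their control shares, an alternative chosen after seeing the data, the melanoma-like ratios were -0.06, 0.20 and 0.22 for Gbp7, Gbp8 and Gbp10 in D+F+P against aPD-1 and 0.13 and -0.12 for Gbp2 and Gbp4 in D+F+P against D+F. That weighting can take out part of the difference measured.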

How the results depend on the processing

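No paired analysis was possible because each group has 1 library, with replicate number 1 only. In melanoma-like cells the summed log2 ratios to control (1.12 in aPD-1, 1.04 in D+F, 1.68 in D+F+P) kept their direction under all alternatives run. They were 1.18, 1.11 and 1.77 with median-of-ratios scaling, 1.19, 1.11 and 1.83 as a mean over cells, and 0.74, 0.72 and 0.71 with clusters weighted as in control, where Gbp5 in D+F+P turned to -0.05 and 5 of 9 members were called higher in D+F+P. Thinning to 1000 UMIs gave 1.25 for D+F and 1.84 for D+F+P, and cells without leukocyte UMIs gave 1.21 for aPD-1. D+F+P against D+F (0.64) was 0.59 thinned and 0.72 as a mean over cells, and against aPD-1 (0.56) it was 0.68, 0.64 and, without leukocyte UMIs, 0.49. With clusters weighted as in control these were 0.00 and -0.03, the counts of 5 and 4 members called higher became 0 and 0, and Gbp4 against D+F turned to -0.12. That weighting can take out part of the difference measured, and no share over all genes was computed under it. The counts of 9 members higher in aPD-1 and in D+F+P became 5 of 6 and 5 of 5 after thinning: the other members had under 20 UMIs in the pair, except Gbp3 in aPD-1, whose ratio was 0.35. The sum in melanoma-like cells against leukocytes depended more on the processing. It was -0.44 in control, -0.88 thinned and -0.71 as a mean over cells. In aPD-1 it was 0.44, and 0.11, 0.00 and, with median-of-ratios scaling, 0.35. In D+F it was 0.21, and -0.30 thinned and -0.27 as a mean over cells. In D+F+P it was 0.93, and 0.52 thinned, 0.24 as a mean over cells, 1.11 with stricter filters, 1.11 with cells named by their own markers and 1.16 without low-ribosomal clusters. Single called members that changed side against leukocytes were Gbp6 in control (-0.03), Gbp10 in D+F (-0.07) and Gbp4 in D+F+P (-0.01) as a mean over cells, and Gbp2 in D+F (-0.15) when thinned. Gbp5 in D+F+P, with no call (-0.37), was 0.16 with stricter filters and 0.25 without low-ribosomal clusters. Except where stated, the cause was not tested. Leaving out low-ribosomal clusters did not touch the CD8 T-like or monocyte/macrophage-like classes. Depth limits Gbp5, Gbp8 and Gbp10 most, and no value has a replicate behind it.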
